A study of Mus musculus with 23 samples.

Results

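Whole jejunum of naive, unimmunized mice was compared between Cpa3Cre/+ and Cpa3+/+ animals by RNA-seq. The 5 libraries whose titles read naive were taken from 23 libraries in all: 2 of Cpa3Cre/+ mice, which the submitters describe as lacking mast cells, and 3 of wild-type Cpa3+/+ mice. All 5 were labelled untreated, and the labels gave no age or strain. The other 18 libraries came from mice of both genotypes immunized with ovalbumin and alum, without challenge or on challenge days 1, 3 and 5. They were used here for the estimate of spread and, where stated, for comparison with the naive state. Fat and Peyer's patches had been removed before RNA extraction, so each library held epithelium, lamina propria, muscle layers and serosa together. In such bulk samples fewer cells of a type and less RNA per cell cannot be told apart. Nothing in the labels stated that replicates were separate animals, so p-values here speak only of library-to-library spread, part of which may be technical.

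Mast cells are tissue-resident immune cells that store proteases, histamine and heparin in granules and carry the high-affinity IgE receptor. In the mouse gut, mucosal mast cells make the chymases Mcpt1 and Mcpt2, while connective-tissue mast cells of the submucosa and muscle make Mcpt4, Cma1 and the tryptases. Cpa3 encodes carboxypeptidase A3, a granule protease. In the Cpa3Cre allele Cre recombinase is placed in the Cpa3 locus, and mast cells are lost through the action of Cre itself. Mast cells are sparse in unchallenged gut mucosa and multiply after immunization or worm infection.

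The naive libraries held 7545950 and 11082690 counted reads in Cpa3Cre/+ mice, and 5476308, 9673929 and 14538525 in Cpa3+/+ mice. Replicate 1 of Cpa3Cre/+ was female and replicate 2 male, and in Cpa3+/+ replicates 1 and 2 were female and replicate 3 male. Levels below are in CPM, the counts of a gene scaled to a common library size, and follow that order. The labelled sexes matched the data. Xist, the X-inactivation RNA, had 1024 and 39.5 CPM in Cpa3Cre/+ libraries, against 503, 811 and 25.3 CPM in Cpa3+/+ libraries. The Y-linked helicase gene Ddx3y had 0 and 34.6 CPM in Cpa3Cre/+ libraries, against 0, 0 and 52.6 CPM in Cpa3+/+ libraries.

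The makeup of the tissue pieces was read first, as the ratio of 18 summed smooth muscle contractile genes to 14 summed pan-epithelial genes. This ratio was 2.05 in the female and 0.216 in the male Cpa3Cre/+ library, against 0.436 and 0.265 in the female and 0.139 in the male Cpa3+/+ libraries. The female Cpa3Cre/+ library therefore stood apart: its ratio was 9.52 times that of the other Cpa3Cre/+ library and 3.96 times the next highest of all 23 libraries. The 18 libraries of the other states ran from 0.114 to 0.518, with a median of 0.227. On the log2 scale the ratio averaged -0.59 ± 2.30 in Cpa3Cre/+ and -1.99 ± 0.83 in Cpa3+/+ libraries (SD, n = 2 and 3). The difference of 1.40 gave p = 0.6 in a two-sided exact permutation test, whose 10 possible splits cannot go below 0.2. Without the female Cpa3Cre/+ library the difference was -0.23. Across genes, the Spearman correlation of that library with the other 4 was 0.924 to 0.962, while those 4 correlated with each other at 0.968 to 0.984 (a description, since genes are not replicates). Many results below are therefore also given without it, with the ratio as a covariate, or both. Where neither value is given, the text does not show whether the result held in those settings.

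**Figure D1:**
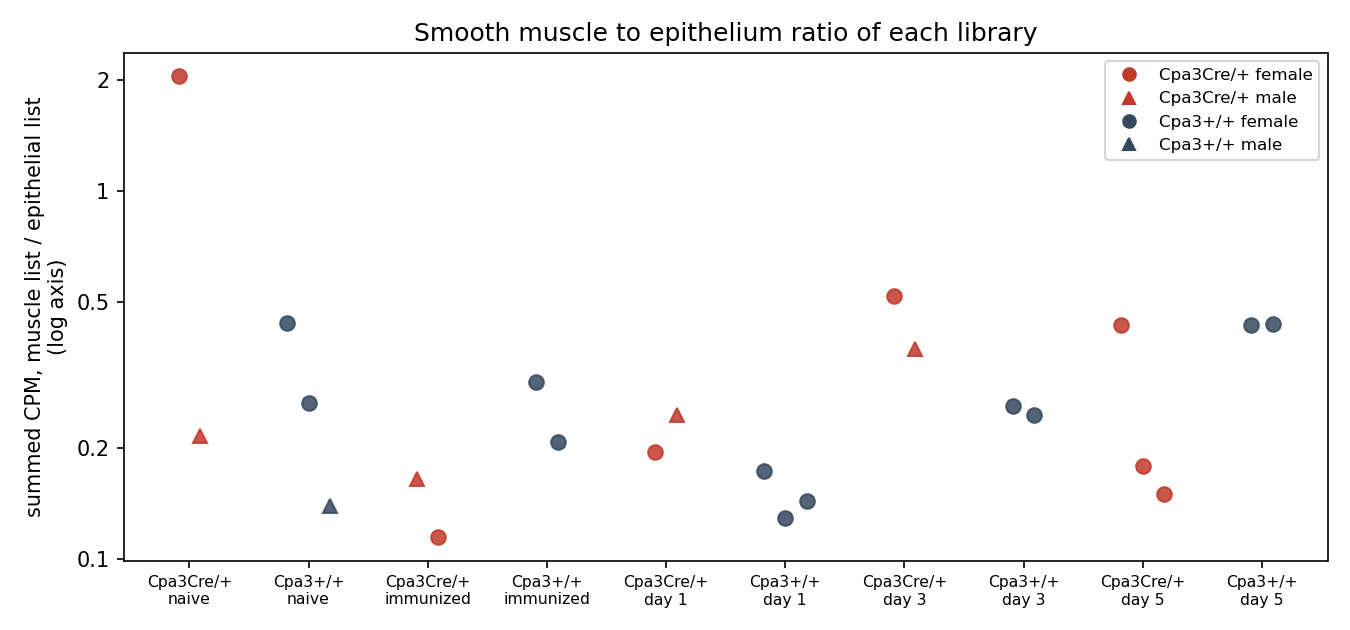
Summed CPM of 18 smooth muscle genes over that of 14 epithelial genes (log axis) in each of the 23 libraries, by genotype and state. Circles are female and triangles male libraries. The female Cpa3Cre/+ naive library lies at 2.05, and the other 22 libraries lie between 0.114 and 0.518.

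Cpa3, Mcpt4, Cma1, Tpsb2, Tpsab1 and the IgE receptor chains gave few reads in naive jejunum of both genotypes, while Mcpt1, Mcpt2 and Kit gave more. No mast cell gene difference between genotypes passed the test. Cpa3 itself (GRCm38 chr3:20215620-20242181, minus strand) had 11 and 1 reads in the Cpa3Cre/+ libraries, against 5, 10 and 23 reads in the Cpa3+/+ libraries. That corresponds to 1.07 and 0.101 CPM in Cpa3Cre/+ and to 0.827, 0.966 and 1.84 CPM in Cpa3+/+ libraries. The female Cpa3Cre/+ library lay within the Cpa3+/+ range and the male one below it, so the groups overlapped. The log2 fold change was -1.12 ± 0.87 (SE; edgeR's quasi-likelihood test, adjusted p = 0.903), with a 95% interval of -2.95 to 0.71. Without the muscle-rich female library it was -3.58, resting on a library with 1 Cpa3 read, and without the male library it was -0.28. The deleted or interrupted part of the locus is not given in the labels, so counts over the whole gene may include transcripts of the altered allele.

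The mucosal chymases gave 49 to 351 reads per library for Mcpt1 and 17 to 136 for Mcpt2. Mcpt1 had 10.1 and 6.34 CPM in Cpa3Cre/+ libraries, against 8.10, 12.8 and 28.0 CPM in Cpa3+/+ libraries. Its log2 fold change of -0.92 ± 0.70 had an adjusted p of 0.903 by edgeR. Mcpt2 had 4.78 and 1.71 CPM in Cpa3Cre/+ libraries, against 3.97, 6.08 and 10.8 CPM in Cpa3+/+ libraries. It differed by -1.07 ± 0.78 on the log2 scale (SE; edgeR, adjusted p = 0.903). For both chymases the female Cpa3Cre/+ library lay within the range of the Cpa3+/+ libraries and the male one was the lowest of all 5. Without the female Cpa3Cre/+ library the log2 fold changes of Mcpt1 and Mcpt2 were -1.78 and -2.46. They were -0.41 and -0.34 without the male one, and -0.96 and -1.38 with the muscle covariate. In the male pair the Cpa3Cre/+ library was lower for Cpa3, Mcpt1 and Mcpt2; in the females it lay above both Cpa3+/+ libraries for Cpa3 and between them for Mcpt1 and Mcpt2.

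Of the proteases of connective-tissue mast cells, Mcpt4, Cma1, Tpsb2 and Tpsab1 gave no more than 15 reads per library. Mcpt4 had 0.488 and 0.302 CPM in Cpa3Cre/+ libraries, against 0.165, 0.0966 and 1.20 CPM in Cpa3+/+ libraries, with most of the wild-type reads in the male library. Cma1, the mast cell chymase orthologous to the human one, had 8 and 1 reads in Cpa3Cre/+ libraries, against 1 read in each Cpa3+/+ library. The pooled ratio was 4.30, with an exact 95% counting interval of 1.07 to 24.7, and 8 of the 9 Cpa3Cre/+ reads came from the muscle-rich library. Tpsb2, a tryptase, had 11 and 1 reads in Cpa3Cre/+ libraries, against 0, 4 and 5 in Cpa3+/+ libraries. Tpsab1, another tryptase, had no read in either Cpa3Cre/+ library, which allows up to 3 reads, and 1, 0 and 1 reads in the Cpa3+/+ libraries. Intervals on such counts cover counting error only. Of the transcript 50-mers, 5.48% of Mcpt4, 5.38% of Cma1 and 18.8% of Mcpt9 also occur in other genes, and none do for Cpa3, Mcpt1, Mcpt2 or Tpsb2.

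Other mast cell genes were no clearer. Fcer1a, the IgE-binding receptor chain, had 2 and 4 reads in Cpa3Cre/+ libraries, against 2, 6 and 7 reads in Cpa3+/+ libraries. Ms4a2, the beta chain of that receptor, had 7 and 3 reads in Cpa3Cre/+ libraries, against 0, 2 and 9 in Cpa3+/+ libraries. Kit, the stem cell factor receptor, which interstitial cells of Cajal in the muscle layer also use, had 32.5 and 14.0 CPM in Cpa3Cre/+ libraries, against 33.7, 20.9 and 12.6 CPM in Cpa3+/+ libraries (log2 fold change 0.11 ± 0.37; edgeR, adjusted p = 0.985). Hdc, the histamine-forming enzyme, had 3.80 and 1.51 CPM in Cpa3Cre/+ libraries, against 1.82, 2.12 and 0.878 CPM in Cpa3+/+ libraries. Gata2, a transcription factor of mast cell progenitors and other cells, had 4.58 and 1.91 CPM in Cpa3Cre/+ libraries, against 3.31, 3.48 and 1.92 CPM in Cpa3+/+ libraries. For Kit, Hdc and Gata2 the female Cpa3Cre/+ library was above the male one, and the 2 groups overlapped.

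Of 11 protease genes, 9 passed the filter on low counts. With all libraries none had an unadjusted p under 0.05 in either direction, and the median log2 fold change was -0.38. The median was -1.36 without the female Cpa3Cre/+ library, which leaves 1 Cpa3Cre/+ library, and -0.31 without the male one. With the muscle covariate it was -0.02. The summed level of the 11 genes was 22.9 and 18.4 CPM in Cpa3Cre/+ libraries, against 23.1, 28.3 and 48.1 CPM in Cpa3+/+ libraries. Both Cpa3Cre/+ sums thus lay below all 3 wild-type sums, the female one only just. A part of each sum is Tpsg1, which had 3.51 and 9.26 CPM in Cpa3Cre/+ libraries, against 8.93, 6.95 and 4.47 CPM in Cpa3+/+ libraries. Between the female Cpa3Cre/+ library and the lowest wild-type one, Tpsg1 differed by more than the sums did. Without Tpsg1 the female Cpa3Cre/+ sum would lie above that wild-type sum, and the groups would overlap. Of 13 other mast cell genes tested, Mitf and Slc18a2 had an unadjusted p under 0.05, both higher in Cpa3Cre/+. Mitf, a transcription factor also made outside mast cells, had 7.41 and 1.91 CPM in Cpa3Cre/+ libraries, against 2.15, 1.45 and 1.52 CPM in Cpa3+/+ libraries. Slc18a2, the vesicular monoamine transporter of mast cells and nerves, had 6.53 and 1.11 CPM in Cpa3Cre/+ libraries, against 1.65, 1.54 and 1.04 CPM in Cpa3+/+ libraries. Both were high in the muscle-rich library alone: without it their log2 fold changes were 0.28 and -0.58.

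**Figure D2:**
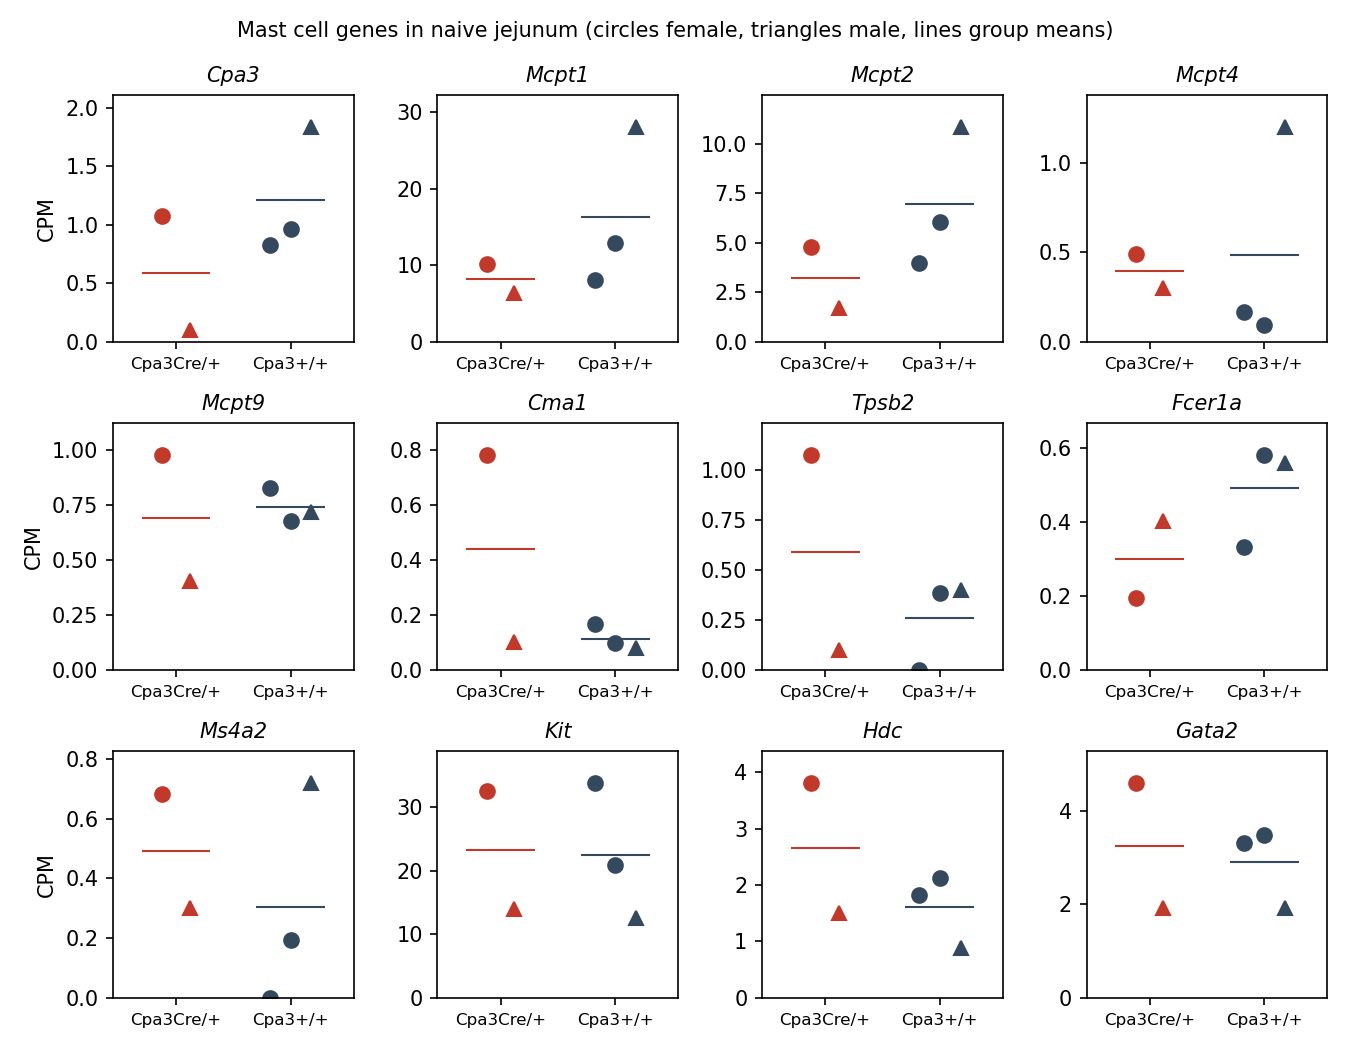
Level (CPM) of 12 mast cell genes in the naive libraries, Cpa3Cre/+ on the left and Cpa3+/+ on the right of each panel, with lines at the group means. Circles are female and triangles male libraries. In every panel the Cpa3Cre/+ and Cpa3+/+ libraries overlap, and the male Cpa3+/+ library has the highest Cpa3, Mcpt1, Mcpt2 and Mcpt4.

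Levels in the other states are given for scale. Mcpt1 averaged 8.24 ± 2.69 CPM in Cpa3Cre/+ naive and 16.3 ± 10.4 CPM in Cpa3+/+ naive libraries, and 36.2 ± 6.83 CPM in Cpa3Cre/+ and 323.2 ± 6.08 CPM in Cpa3+/+ libraries on challenge day 3 (SD, n = 2 for each but Cpa3+/+ naive, n = 3). Cpa3 averaged 0.834 ± 0.194 CPM in Cpa3Cre/+ and 15.2 ± 2.93 CPM in Cpa3+/+ libraries on day 3 (SD, n = 2 each). The naive genotype difference was set against the mean of the genotype differences in the other 4 states, in one model. No gene passed (adjusted p of at least 0.993 by edgeR, 0% of 17236 genes). At an unadjusted p under 0.05, 444 genes (2.58%) had a higher and 184 (1.07%) a lower difference in the naive state. Among them, with a higher difference, were 5 of the 9 proteases tested, with a median log2 difference of 2.42 over all 9. A higher difference means that Cpa3Cre/+ stood higher against Cpa3+/+ in the naive state than in the other states on average. The 5 were Cpa3, Mcpt1, Mcpt9, Cma1 and Tpsb2. In each of the other 4 states their mean level was lower in Cpa3Cre/+ than in Cpa3+/+ libraries. In the muscle-rich library Cpa3 had 11 reads, Cma1 8 and Tpsb2 11, against 1 each in the male Cpa3Cre/+ naive library. Without the muscle-rich library the median naive log2 fold change of the proteases was -1.36, against -0.38 with all libraries. The comparison of these 5 genes with the other states is not reported here without that library.

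Across the transcriptome no gene differed between naive Cpa3Cre/+ and Cpa3+/+ jejunum at an adjusted p under 0.05 (0% of 17236 genes tested with edgeR; smallest adjusted p 0.8996). DESeq2 with the same model also called 0. At an unadjusted p under 0.05, 711 genes (4.13%) were higher and 210 (1.22%) lower in Cpa3Cre/+, 921 in all or 5.34% of the genes tested, and DESeq2 gave 965. Both Cpa3Cre/+ libraries lay above all 3 Cpa3+/+ libraries for 1370 genes (7.95%) and below them for 783 (4.54%). The median log2 fold change over all genes was 0.05, and the median of its size 0.26. The group results that follow are counts at an unadjusted p under 0.05, to be read against those background shares. None of them is a call. The balance of higher and lower genes turned round without the muscle-rich library, with 170 higher and 468 lower, and with the muscle covariate, with 245 higher and 460 lower. Without the muscle-rich library 1 gene passed the adjusted threshold, and without the male Cpa3Cre/+ library 5 did.

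Smooth muscle contractile genes were higher in Cpa3Cre/+ for all 18 members, 15 of them at an unadjusted p under 0.05 and none lower. These genes build the actin-myosin apparatus of the muscle coats. Tagln, the actin-binding transgelin, had 948 and 276 CPM in Cpa3Cre/+ libraries, against 385, 180 and 108 CPM in Cpa3+/+ libraries (log2 fold change 1.49 ± 0.53; edgeR, adjusted p = 0.8996). Actg2, the enteric gamma-actin, had 674 and 198 CPM in Cpa3Cre/+ libraries, against 296, 109 and 75.1 CPM in Cpa3+/+ libraries (log2 fold change 1.51 ± 0.60; edgeR, adjusted p = 0.8996). Tpm1, a tropomyosin, had 1066 and 609.6 CPM in Cpa3Cre/+ libraries, against 644, 442 and 452 CPM in Cpa3+/+ libraries. Myl9, a regulatory myosin light chain, had 877 and 223 CPM in Cpa3Cre/+ libraries, against 352, 201 and 113 CPM in Cpa3+/+ libraries. In all 4 genes the female Cpa3Cre/+ library was the highest, the male Cpa3Cre/+ library lay below the first female Cpa3+/+ library, and the groups overlapped. That overlap held for each of the 18 genes.

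The list's median log2 fold change was 1.25. It was 1.79 without the male Cpa3Cre/+ library, with 17 genes at an unadjusted p under 0.05, and 0.13 without the female one, with none. With the muscle to epithelium ratio as a covariate the median was 0.05 and none of the 18 remained under that p, though the ratio was built from the same genes. Within each sex, all 18 genes were higher in the Cpa3Cre/+ library, by a median of 1.65 in females (1 library against 2) and 0.57 in males (1 against 1) on the log2(CPM + 1) scale.

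Promoters of the list were searched for the CArG box, the sequence bound by serum response factor in contractile genes, on both strands of windows from 250 bases before to 50 bases after the RefSeq start site. The box was matched strictly, as CC, 6 bases of A or T, and GG. It was found in 2 of 16 windows of the 15 genes matched, and in 535 of 32851 windows of all genes (1.63%). The 2 windows, from RefSeq on GRCm38.p6, are printed 5′ to 3′ on the gene's strand with the CArG box in capitals, because the genes of this list lay higher together here. Myl9 is at chr2:156775214-156775513 on the plus strand and Actc1 at chr2:114052826-114053125 on the minus strand.
Myl9: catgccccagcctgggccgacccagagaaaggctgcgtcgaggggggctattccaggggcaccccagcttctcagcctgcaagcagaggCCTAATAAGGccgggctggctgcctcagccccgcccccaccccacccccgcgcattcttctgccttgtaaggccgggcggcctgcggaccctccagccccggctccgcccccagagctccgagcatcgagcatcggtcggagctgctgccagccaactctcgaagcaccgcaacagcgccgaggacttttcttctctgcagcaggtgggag
Actc1: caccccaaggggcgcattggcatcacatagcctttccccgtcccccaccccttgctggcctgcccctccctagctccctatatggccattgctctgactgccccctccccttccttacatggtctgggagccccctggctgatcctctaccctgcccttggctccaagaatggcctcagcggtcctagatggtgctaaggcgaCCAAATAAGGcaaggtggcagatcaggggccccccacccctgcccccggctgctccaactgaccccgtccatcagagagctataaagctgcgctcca
Actc1, the cardiac alpha-actin that smooth muscle also makes, had 28.6 and 6.94 CPM in Cpa3Cre/+ libraries, against 14.6, 12.4 and 6.14 CPM in Cpa3+/+ libraries. A match in letters is a description and not evidence of binding.

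Most enteric neuron and glia genes were also highest in the muscle-rich library. Of 18 enteric neuron and glia genes, 7 were higher at an unadjusted p under 0.05 and none lower, with a median log2 fold change of 1.00. Vip, the relaxant neuropeptide, had 109 and 48.8 CPM in Cpa3Cre/+ libraries, against 53.7, 35.5 and 16.2 CPM in Cpa3+/+ libraries (log2 fold change 1.25 ± 0.38; edgeR, adjusted p = 0.8996). Snap25, of the synaptic release machinery, and S100b, a glial calcium-binding protein, had log2 fold changes of 1.06 ± 0.42 and 1.32 ± 0.54. For Vip the male Cpa3Cre/+ library lay below the first female Cpa3+/+ library but above the male one. The within-sex medians were 1.03 in females and 0.79 in males. The summed list did not follow them, at 527 and 627 CPM in Cpa3Cre/+ libraries, against 659, 629 and 511 CPM in Cpa3+/+ libraries. Most of each sum but the first was Erbb3, a neuregulin receptor of glia that epithelium also makes, with 193 and 499 CPM in Cpa3Cre/+ libraries, against 474.5, 517.5 and 458 CPM in Cpa3+/+ libraries. Without the female Cpa3Cre/+ library the list's median was 0.11 and none of its genes had an unadjusted p under 0.05.

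Genes of mesothelium, which forms the serosal surface, and of fat shared a list, of whose 7 tested members 5 were higher and none lower at an unadjusted p under 0.05, with a median log2 fold change of 1.78. Without the female Cpa3Cre/+ library the median was 0.82, and with the muscle covariate 0.66, each with 1 gene higher. Msln, mesothelin, had 5.95 and 1.81 CPM in Cpa3Cre/+ libraries, against 1.98, 0.0966 and 0.399 CPM in Cpa3+/+ libraries (log2 fold change 2.46 ± 0.83; edgeR, adjusted p = 0.8996). Upk3b, an uroplakin of mesothelium, had 12.3 and 3.22 CPM in Cpa3Cre/+ libraries, against 4.79, 0.579 and 1.68 CPM in Cpa3+/+ libraries. Lrrn4, another mesothelial marker, had 2.93 and 0.704 CPM in Cpa3Cre/+ libraries, against 0.992, 0.193 and 0.160 CPM in Cpa3+/+ libraries. Each was highest in the female Cpa3Cre/+ library and overlapped otherwise. Upk1b, a further uroplakin, had 3.02 and 5.03 CPM in Cpa3Cre/+ libraries, against 2.31, 1.83 and 1.596 CPM in Cpa3+/+ libraries, and was the one of the 7 whose groups did not overlap. The summed list had 120 and 111 CPM in Cpa3Cre/+ libraries, against 60.4, 76.5 and 163 CPM in Cpa3+/+ libraries, and was thus highest in a wild-type library. Most of each sum came from Cidec, a lipid droplet protein, with 6.83 and 76.5 CPM in Cpa3Cre/+ libraries, against 26.3, 45.2 and 132 CPM in Cpa3+/+ libraries, and Fabp4, a fatty acid carrier of fat and endothelium, with 87.8 and 23.4 CPM in Cpa3Cre/+ libraries, against 23.8, 28.6 and 27.2 CPM in Cpa3+/+ libraries. The fat genes Adipoq and Cfd, with 0 and 0.101 CPM and 0 and 0.302 CPM in Cpa3Cre/+ libraries and 0 CPM in all Cpa3+/+ libraries, showed next to no adipose tissue.

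Fewer members reached that p in the other stromal lists. Of 8 interstitial cell of Cajal genes, Prkcq had an unadjusted p under 0.05, with 17.8 and 2.42 CPM in Cpa3Cre/+ libraries, against 5.46, 3.96 and 2.39 CPM in Cpa3+/+ libraries. Of 14 fibroblast genes, 2 did so, both higher. Lum, the collagen-binding lumican, had 61.5 and 12.8 CPM in Cpa3Cre/+ libraries, against 27.1, 12.8 and 6.86 CPM in Cpa3+/+ libraries. Mfap5, a microfibril protein, had 2.05 and 0.704 CPM in Cpa3Cre/+ libraries, against 0.661, 0.676 and 0.319 CPM in Cpa3+/+ libraries, with no overlap. The 10 endothelial genes all lay on the positive side (median log2 fold change 0.49), but none had an unadjusted p under 0.05. Pecam1, an endothelial adhesion molecule, had 99.0 and 24.9 CPM in Cpa3Cre/+ libraries, against 47.0, 47.3 and 36.7 CPM in Cpa3+/+ libraries, so the Cpa3Cre/+ libraries lay on either side of the wild type. All 3 lists turned round without the female Cpa3Cre/+ library. The median was then -0.79 for endothelial genes (2 lower at an unadjusted p under 0.05), -0.55 for Cajal genes (none; 0.60 with it) and -0.71 for fibroblast genes (4 lower; 0.27 with it). With the muscle covariate the medians were -0.54, -0.47 and -0.65. In males 1 of the 10 endothelial genes was higher in Cpa3Cre/+.

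**Figure D3:**
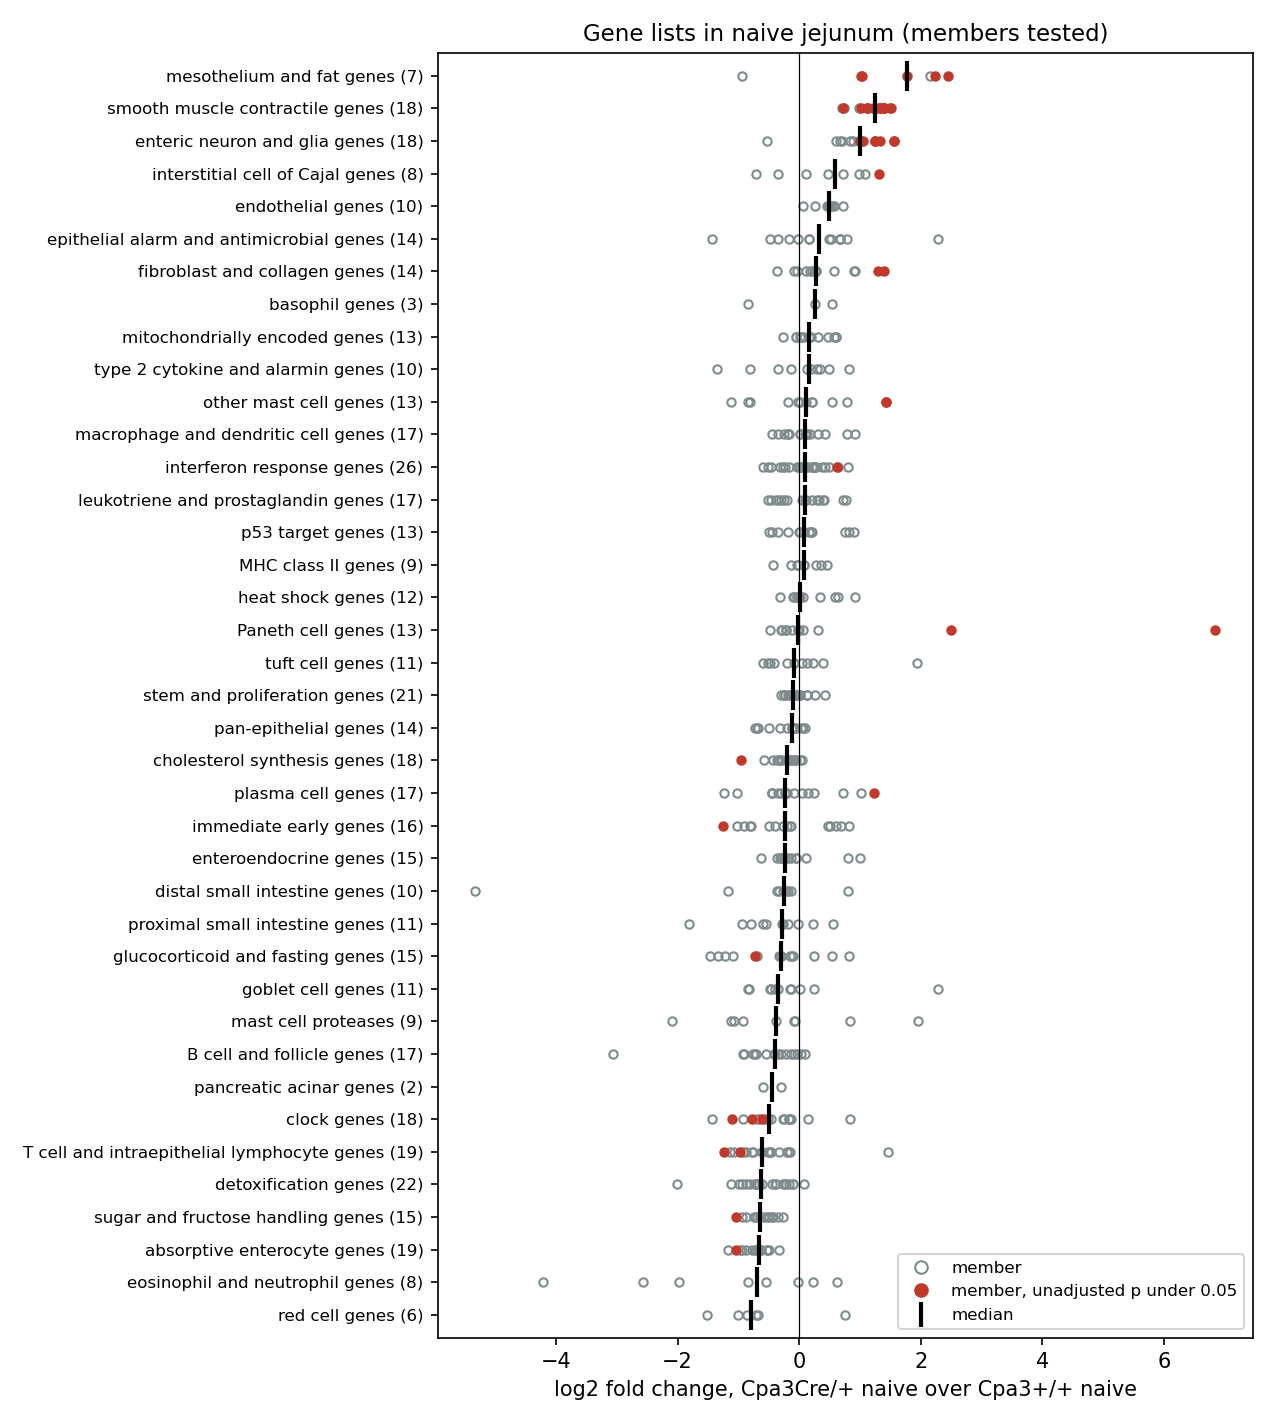
Log2 fold change (Cpa3Cre/+ naive over Cpa3+/+ naive) of the tested members of each gene list, with the number tested in parentheses, lists ordered by their median. Open circles are members, red circles members at an unadjusted p under 0.05 and black bars medians. Mesothelium and fat (median 1.78), smooth muscle (1.25) and neuron (1.00) genes lie furthest to the right, and enterocyte genes (-0.66) lie left of 0.

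Absorptive enterocyte genes were lower in Cpa3Cre/+ for all 19 members, with a median log2 fold change of -0.66, but for 1 at an unadjusted p under 0.05. That gene was Mgam, the brush border maltase-glucoamylase, with 1002 and 2808 CPM in Cpa3Cre/+ libraries, against 2593, 3717 and 4569 CPM in Cpa3+/+ libraries (log2 fold change -1.04 ± 0.44; edgeR, adjusted p = 0.8996). The summed list had 12611 and 83869 CPM in Cpa3Cre/+ libraries, against 44667, 57880 and 98570 CPM in Cpa3+/+ libraries. The female Cpa3Cre/+ library was lowest and the male one second only to the male wild type. Without the female library the median was 0.22 and no gene had an unadjusted p under 0.05. Without the male library it was -2.40 and all 19 were lower at an unadjusted p under 0.05.

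Sugar and fructose handling genes (15 tested) had a median of -0.65, with Mgam again the 1 gene at that p. Detoxification genes, the carboxylesterases, cytochromes and conjugating enzymes of enterocytes, had a median of -0.63 over 22 genes with none at that p. Both lists also had positive medians, 0.19 and 0.16, without the female Cpa3Cre/+ library. The 14 pan-epithelial genes had a median of -0.12. Vil1, the microvillus protein villin, had 658 and 2778 CPM in Cpa3Cre/+ libraries, against 2001, 2220 and 3269 CPM in Cpa3+/+ libraries. Goblet cell (11), enteroendocrine (15), tuft cell (11) and stem and proliferation (21) genes gave none at that p. Olfm4, the crypt base stem cell gene, had 1148 and 819.9 CPM in Cpa3Cre/+ libraries, against 1258, 989.8 and 775 CPM in Cpa3+/+ libraries.

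Of 13 Paneth cell genes, 5 had a positive and 8 a negative log2 fold change, with a median of -0.02. That median was -0.33 without the female Cpa3Cre/+ library and -0.74 with the muscle covariate. At an unadjusted p under 0.05 by edgeR, 2 were higher in Cpa3Cre/+ and none lower. These were the antimicrobial cryptdin genes Defa22 and Defa26, and the male library carried both differences. Defa22 (GRCm38 chr8:21162277-21163249, plus strand) had 0.0975 and 71.5 CPM in Cpa3Cre/+ libraries, against 0.331, 0.0966 and 0 CPM in Cpa3+/+ libraries. The pooled ratio was 339.5, with an exact 95% counting interval of 115.7 to 1650, and all but 1 of the 711 Cpa3Cre/+ reads came from the male library. Defa26 had 4.88 and 37.9 CPM in Cpa3Cre/+ libraries, against 3.64, 4.34 and 1.12 CPM in Cpa3+/+ libraries. Without the female Cpa3Cre/+ library Defa22 passed the adjusted threshold (edgeR, adjusted p = 0.0213, on 1 Cpa3Cre/+ library), and without the male one its log2 fold change was -0.49. Of the 50-mers of Defa22, 74.9% also occur in 9 other genes, and 40.3% of those of Defa26 in 10 other genes, so the counting could split reads among the family.

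T cell and intraepithelial lymphocyte genes gave 2 lower of 19 and none higher, with a median log2 fold change of -0.60. Itgae, the CD103 integrin chain that tethers intraepithelial lymphocytes to E-cadherin, had 7.41 and 7.65 CPM in Cpa3Cre/+ libraries, against 10.4, 14.6 and 18.8 CPM in Cpa3+/+ libraries (log2 fold change -0.97 ± 0.33; edgeR, adjusted p = 0.8996). Cd3e, a chain of the T cell receptor complex, had 1.27 and 5.23 CPM in Cpa3Cre/+ libraries, against 6.28, 6.76 and 8.54 CPM in Cpa3+/+ libraries. In both genes each Cpa3Cre/+ library was below every Cpa3+/+ library. Itgae kept its value when the female Cpa3Cre/+ library was left out (-1.005), when the male one was (-1.05), and with the muscle covariate (-0.93). For Cd3e the same settings gave -0.44, -2.62 and -0.83.

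Macrophage and dendritic cell genes went opposite ways in the sexes. With all libraries none of the 17 had an unadjusted p under 0.05, and the median log2 fold change was 0.10. The median was -1.21 without the female Cpa3Cre/+ library and 0.71 without the male one. With the muscle covariate it was -0.95, and 6 of the 17 were lower at an unadjusted p under 0.05. All 17 were higher in the Cpa3Cre/+ library of the females, by a median of 0.77, and all 17 lower in that of the males, by a median of -1.10, on the log2(CPM + 1) scale. Csf1r, the receptor that macrophages need to survive, had 64.3 and 16.8 CPM in Cpa3Cre/+ libraries, against 45.6, 54.0 and 62.2 CPM in Cpa3+/+ libraries. Lyz2, macrophage lysozyme, had 169 and 36.1 CPM in Cpa3Cre/+ libraries, against 103, 77.1 and 88.5 CPM in Cpa3+/+ libraries. The male Cpa3Cre/+ library was thus the lowest and the female one the highest of all 5. The MHC class II gene Cd74 had 420 and 132 CPM in Cpa3Cre/+ libraries, against 414, 340 and 349 CPM in Cpa3+/+ libraries. Over 9 MHC class II genes the median log2 fold change was 0.08. It was -0.86 without the female Cpa3Cre/+ library and -0.75 with the muscle covariate (3 lower at an unadjusted p under 0.05).

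Plasma cell genes showed the low male library too. Of 17, Iglc3, a lambda light chain constant gene, was the 1 gene at an unadjusted p under 0.05, with 51.8 and 7.75 CPM in Cpa3Cre/+ libraries, against 13.6, 15.1 and 8.62 CPM in Cpa3+/+ libraries. The summed list had 5293 and 1891 CPM in Cpa3Cre/+ libraries, against 4397, 3827 and 4398 CPM in Cpa3+/+ libraries. Its median log2 fold change was -0.23, and -1.49 without the female Cpa3Cre/+ library. With the muscle covariate it was -0.89, with 4 genes lower at an unadjusted p under 0.05. Among genes at which 1 library lay more than 4-fold below all 4 others (0.25 CPM added), the male Cpa3Cre/+ library had 20, of which 17 were immunoglobulin variable segments. The female Cpa3Cre/+ library had 77, among them 7 of the enterocyte list. Each Cpa3+/+ library had no more than 2. B cell and follicle genes (17 tested), eosinophil and neutrophil genes (8) and type 2 cytokine and alarmin genes (10) gave none at an unadjusted p under 0.05. Of 26 interferon response genes, the guanylate-binding protein Gbp3 did, with 37.4 and 19.4 CPM in Cpa3Cre/+ libraries, against 18.02, 16.1 and 21.1 CPM in Cpa3+/+ libraries.

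Of 18 clock genes, 3 were lower in Cpa3Cre/+ at an unadjusted p under 0.05 and none higher, with a median of -0.49. Cry1, a repressor of the clock, had 9.36 and 11.6 CPM in Cpa3Cre/+ libraries, against 12.6, 14.7 and 25.6 CPM in Cpa3+/+ libraries, and the groups did not overlap (log2 fold change -0.77 ± 0.29; edgeR, adjusted p = 0.8996). Per2, a further repressor, had 20.2 and 24.7 CPM in Cpa3Cre/+ libraries, against 24.1, 58.4 and 59.2 CPM in Cpa3+/+ libraries. Bhlhe40, a light- and feeding-responsive repressor, had 58.6 and 67.9 CPM in Cpa3Cre/+ libraries, against 67.3, 117 and 104 CPM in Cpa3+/+ libraries. The median stayed at -0.41 without the female Cpa3Cre/+ library, -0.67 without the male one and -0.40 with the muscle covariate, with 0, 4 and 0 genes lower at an unadjusted p under 0.05. Sampling times are not given in the labels, and the part of time of day in these values was not tested.

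Single genes of other pathways reached that p. Fos, the immediate early transcription factor, had 9.36 and 42.5 CPM in Cpa3Cre/+ libraries, against 44.0, 79.1 and 53.2 CPM in Cpa3+/+ libraries. Ppargc1a, a coactivator induced by fasting, had 39.8 and 76.0 CPM in Cpa3Cre/+ libraries, against 80.2, 102 and 92.3 CPM in Cpa3+/+ libraries. Both were lower in Cpa3Cre/+ without overlap, and each was the 1 gene of its list at that p, of 16 and 15 tested. Both leaned on the muscle-rich library. The log2 fold change of Fos was -1.25, and -0.28 without that library. For Ppargc1a it was -0.72 and -0.28. With the muscle covariate Fos had -0.87 and Ppargc1a -0.47. In the cholesterol list 5 of 18 genes had both Cpa3Cre/+ libraries below all Cpa3+/+ libraries, against 4.54% of all genes, at a median log2 fold change of -0.20. Heat shock (12), p53 target (13), leukotriene and prostaglandin (17) and mitochondrially encoded (13) genes gave none at that p.

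The genes with the smallest unadjusted p among those whose groups did not overlap were mostly of low level. Nrxn3 (GRCm38 chr12:88722876-90334935, plus strand), a presynaptic adhesion molecule, had 1.46 and 0.906 CPM in Cpa3Cre/+ libraries, against 0.165, 0.193 and 0.160 CPM in Cpa3+/+ libraries. Its log2 fold change was 2.72 ± 0.56 (edgeR, adjusted p = 0.8996), 2.37 without the female Cpa3Cre/+ library and 2.17 with the muscle covariate. Ube2w, a ubiquitin-conjugating enzyme, differed least within groups, with 24.7 and 23.6 CPM in Cpa3Cre/+ libraries, against 15.9, 15.1 and 16.6 CPM in Cpa3+/+ libraries (log2 fold change 0.60 ± 0.17; edgeR, adjusted p = 0.8996). It was 0.52 without the female Cpa3Cre/+ library and 0.57 without the male one. That both Cpa3Cre/+ libraries lay on the same side of the wild type in these genes was set by how they were chosen.

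Some of the other higher genes leaned on the muscle-rich library. Ldb2, a LIM domain cofactor, had 13.7 and 4.43 CPM in Cpa3Cre/+ libraries, against 3.97, 3.09 and 2.79 CPM in Cpa3+/+ libraries, and its log2 fold change of 1.47 ± 0.44 was 0.28 without the female Cpa3Cre/+ library. Arl3, a small GTPase of cilia, had 14.6 and 5.94 CPM in Cpa3Cre/+ libraries, against 5.46, 5.02 and 3.59 CPM in Cpa3+/+ libraries, with 1.16 ± 0.32 over all libraries and 0.60 without the female one. Cacna2d3, a calcium channel subunit, likewise gave 1.89 ± 0.52 and 0.97. The others were Cadm4 (1.64 ± 0.39), Purg (1.54 ± 0.44), Nell1 (2.23 ± 0.65), Zdbf2 (3.21 ± 0.94), AC121783.1 (1.71 ± 0.49), Cd63-ps (1.32 ± 0.40) and AC124459.1 (1.65 ± 0.50), all log2 fold changes with their SE. Each of these 7 was also above 1 on that scale with either Cpa3Cre/+ library left out. Of them Zdbf2, with 19 and 3 reads in the Cpa3Cre/+ libraries, against 1, 2 and 0 in the Cpa3+/+ libraries, came to 1.48 without the female one, and Nell1 to 1.29, so they leaned on it too.

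Among lower genes, Nfkb1 (GRCm38 chr3:135584655-135691547, minus strand), which encodes the p105/p50 subunit of NF-kappaB, had 61.6 and 46.8 CPM in Cpa3Cre/+ libraries, against 75.2, 89.0 and 96.3 CPM in Cpa3+/+ libraries. Its log2 fold change was -0.68 ± 0.20 (edgeR, adjusted p = 0.8996), -0.90 without the female and -0.59 without the male Cpa3Cre/+ library. Pfkfb3, which makes the allosteric activator of glycolysis, had 26.0 and 20.6 CPM in Cpa3Cre/+ libraries, against 38.2, 86.8 and 48.9 CPM in Cpa3+/+ libraries (log2 fold change -1.30 ± 0.38; edgeR, adjusted p = 0.8996). Foxo3, a transcription factor held back by insulin signalling, had 45.6 and 62.0 CPM in Cpa3Cre/+ libraries, against 77.2, 82.5 and 113 CPM in Cpa3+/+ libraries. These 3 genes were chosen with both Cpa3Cre/+ libraries below the lowest wild-type one. The lower of the Cpa3Cre/+ pair was the male library for Nfkb1 and Pfkfb3 and the female one for Foxo3.

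Akp3, an intestinal alkaline phosphatase, had the lowest fold among these genes, at -2.98 ± 0.97, and also a wide wild-type range: 3.90 and 8.65 CPM in Cpa3Cre/+ libraries, against 40.5, 11.6 and 95.5 CPM in Cpa3+/+ libraries. Proc, the anticoagulant protein C, had 1.27 and 1.21 CPM in Cpa3Cre/+ libraries, against 3.14, 1.93 and 3.51 CPM in Cpa3+/+ libraries (log2 fold change -1.20 ± 0.35). Scnn1a, a subunit of the epithelial sodium channel, had 7.22 and 10.5 CPM in Cpa3Cre/+ libraries, against 14.9, 11.4 and 14.9 CPM in Cpa3+/+ libraries. The remaining ones, beside Itgae, were Sspo (-1.15 ± 0.38), Zfp335 (-0.50 ± 0.18), Sipa1l2 (-0.48 ± 0.18), Fam169b (-0.86 ± 0.32) and Bicra (-0.59 ± 0.22). Without the female Cpa3Cre/+ library Sspo came to -0.83, Zfp335 to -0.24, Sipa1l2 to -0.41, Fam169b to -0.73 and Bicra to -0.44. Scnn1a went from -0.67 to -0.45. All 24 of these genes had adjusted p-values of 0.8996 by edgeR.

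**Figure D4:**
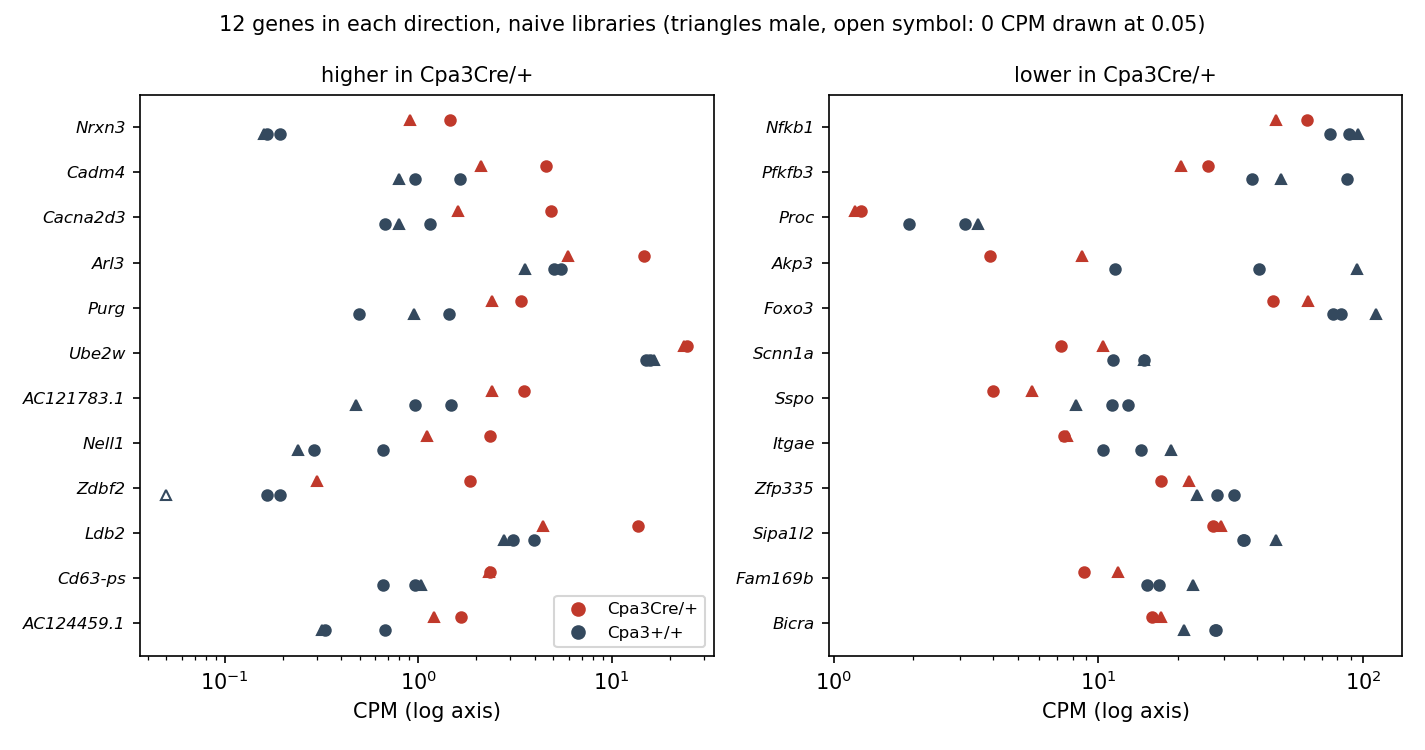
Level (CPM, log axis) in each naive library of the 12 higher and 12 lower genes with the smallest unadjusted p among genes whose groups do not overlap. Red symbols are Cpa3Cre/+ and dark ones Cpa3+/+ libraries, triangles are male, and the open symbol marks 0 CPM. The lack of overlap is how the genes were chosen. Ube2w shows the tightest groups and Akp3 among the widest.

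Differences within each sex were compared next. Over 14770 genes with a mean of at least 1 CPM, the female difference (1 Cpa3Cre/+ library minus the mean of 2 Cpa3+/+ libraries) and the male one (1 minus 1) used no library in common. Their correlation across genes was 0.02 (Pearson's r) and -0.01 (Spearman's rho), given as a description of these libraries. More than 2-fold higher in Cpa3Cre/+ were 1068 genes in females and 292 in males, of which 49 in both, or 4.59% and 16.8% of each. More than 2-fold lower were 897 and 391 genes, of which 47 in both, or 5.24% and 12% of each, and 55 genes were over 2-fold in opposite directions. Each of these percentages was above the share of all 14770 genes over 2-fold in that direction in the other sex. The genes in opposite directions also exceeded such shares, with 36 higher in females and lower in males and 19 the reverse. An excess was thus not limited to genes that moved the same way in both sexes. The overlap itself was not tested. The SD of the differences was 0.67 in females and 0.48 in males on the log2(CPM + 1) scale.

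**Figure D5:**
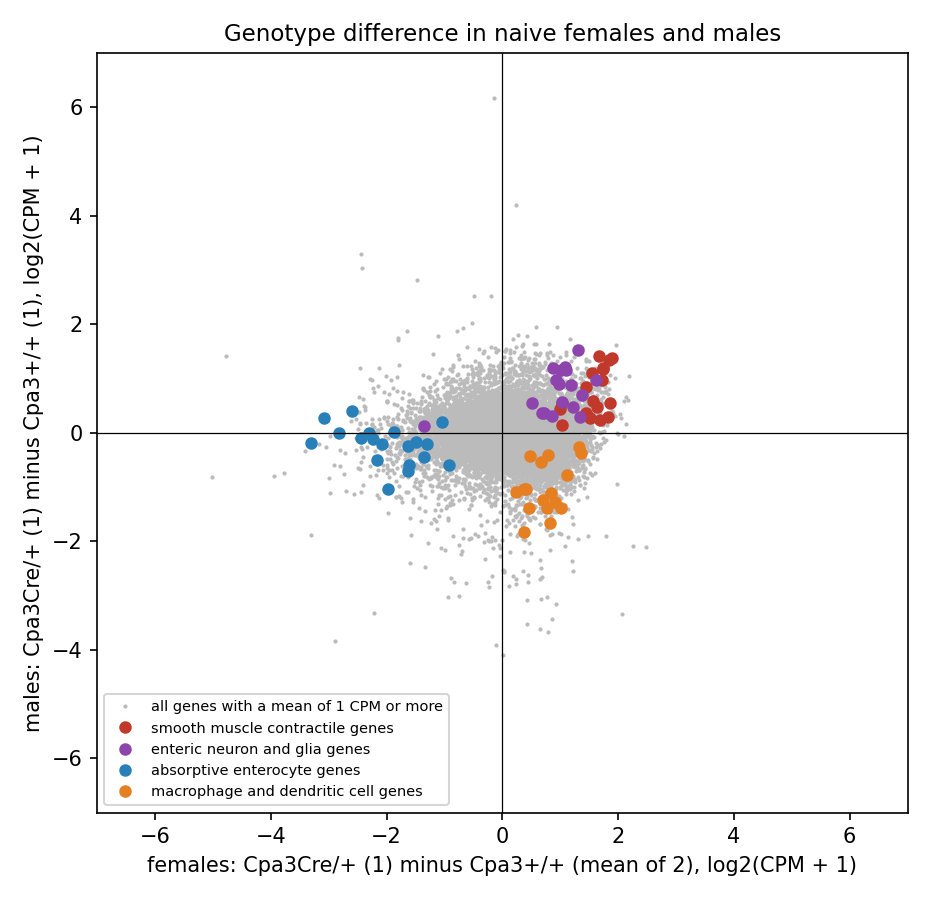
Difference between Cpa3Cre/+ and Cpa3+/+ (log2(CPM + 1)) in females on the horizontal and in males on the vertical axis, 1 point per gene. Coloured points are members of 4 gene lists. Muscle genes lie right of and above 0, enterocyte genes lie to the left around 0 on the male axis, and macrophage genes lie to the right and below 0.

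Genes near the targeted locus were read separately, since a knock-in can carry flanking sequence of another strain. Within 2 Mb of Cpa3, 12 other genes were tested and none had an unadjusted p under 0.05. Their log2 fold changes ran from -0.38 for Pde7a, a cyclic AMP phosphodiesterase, to 1.31 for the predicted gene Gm7488. Gyg, the glycogen primer glycogenin, had 33.4 and 16.1 CPM in Cpa3Cre/+ libraries, against 20.5, 15.7 and 16.4 CPM in Cpa3+/+ libraries. Hltf, a chromatin remodeller, had 33.0 and 31.3 CPM in Cpa3Cre/+ libraries, against 31.1, 34.5 and 34.2 CPM in Cpa3+/+ libraries.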

How the data were processed

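RNA was extracted from whole jejunum, and libraries were made with a stranded Illumina kit, per the labels' protocols. The submitters' processing notes name STAR, featureCounts from Subread 1.5.1 and the mouse build GRCm38 (mm10). The strand setting of the counting is not given in the sources used here. The deposited values are raw counts per gene from the authors, for 55487 gene identifiers, of which 55227 were named through GENCODE vM21 (260 unnamed identifiers held 0.0014% of reads). Replicates were labelled by number only.

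Counts were filtered with filterByExpr, scaled by TMM and tested in edgeR 4.0.16 (R 4.3.3, robust quasi-likelihood F test) with 10 group means and sex over 23 libraries, leaving 12 residual degrees of freedom and 17236 genes. P-values were adjusted by Benjamini-Hochberg with a threshold of 0.05. CPM use the TMM-scaled library sizes. The biological coefficient of variation was 28.6%. DESeq2 1.42.0 was an alternative. The edgeR step was also run on simulated counts with known changes, without the filter and with less spread than in these data. No muscle-rich library was simulated. That run checked the calculation and cannot speak to the power of the naive comparison.

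The genes named are 13 mast cell genes, the 12 in each direction with the smallest unadjusted p among genes with a mean of at least 1 CPM in a naive group and no overlap between groups (predicted genes, receptor segments, Y-linked genes and Xist left out), up to 4 per gene list by unadjusted p or otherwise up to 2 by level, genes within 2 Mb of Cpa3, and genes called under an alternative. Genes called with no filter on low counts are given as a count, and Actc1, Adipoq, Cfd, Erbb3, Cidec and Fabp4 were named after their values were seen. A few genes that the rule names are not reported here. The libraries, lists and tests were chosen with earlier results of these data known. Sequences and start sites are RefSeq's. Alternatives were other scaling, no filter, DESeq2, other covariates and samples, and leaving out each library.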

Additional observations from a re-analysis of the deposited data

Results flagged for a closer look

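Macrophage and dendritic cell genes gave opposite genotype differences in the sexes: the median over 17 genes was 0.77 in females and -1.10 in males (log2(CPM + 1)), with all 17 genes on opposite sides of 0. The females rest on 1 Cpa3Cre/+ and 2 Cpa3+/+ libraries and the males on 1 of each, so the difference between the sexes was not tested. The muscle to epithelium ratio was higher in Cpa3Cre/+ in both sexes, so that it moved with the list in females and against it in males. It was at 2.05 in the female Cpa3Cre/+ library against 0.436 and 0.265 in the female Cpa3+/+ libraries, and at 0.216 in the male Cpa3Cre/+ library against 0.139 in the male Cpa3+/+ library. With the ratio as a covariate, over both sexes together, the list's median log2 fold change was -0.95, against 0.10 without the covariate. The part of the ratio in the opposite differences of the sexes was not tested.

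For 14 of 32 named genes without overlap in the naive state (43.8%; 82 examined) the order of the genotypes in the naive state was turned round after immunization without challenge (2 libraries of each genotype), with no overlap between genotypes in either state. Of the same 32 named genes, 1 kept its order without overlap (3.1%). Over all 17236 genes tested, 413 of 2153 without overlap in the naive state turned round in this way (19.2%) and 423 kept their order without overlap (19.6%). The named genes had been chosen in part for a lack of overlap in the naive state, and the difference between the 2 states was not tested for them. The naive log2 fold change was 1.64 for Cadm4, 1.16 for Arl3, 0.60 for Ube2w, 1.47 for Ldb2, 1.65 for AC124459.1 and 2.50 for Defa26. It was -0.68 for Nfkb1, -1.30 for Pfkfb3, -2.98 for Akp3, -0.78 for Foxo3, -0.67 for Scnn1a, -1.15 for Sspo, -0.97 for Itgae and -0.50 for Zfp335. In immunized mice Pfkfb3 had 52.5 and 43.6 CPM in Cpa3Cre/+ libraries, against 31.0 and 32.5 CPM in Cpa3+/+ libraries. Akp3 had 15.6 and 86.1 CPM in immunized Cpa3Cre/+ libraries, against 3.45 and 2.84 CPM in immunized Cpa3+/+ libraries. Ube2w had 16.0 and 15.5 CPM in immunized Cpa3Cre/+ libraries, against 19.7 and 17.0 CPM in immunized Cpa3+/+ libraries.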

How the results depend on the processing

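The count of called genes, 0, stayed at 0 with DESeq2 size factors, DESeq2, no sex covariate, female libraries only, the 5 naive libraries only and the muscle covariate. With no filter on low counts it was 166 (68 higher, 98 lower; 164 of them also tested with the filter, 10 of the muscle list and 32 immunoglobulin segments). That fit gave each gene the trend's spread, with 384804 degrees of freedom against 17.5 with the filter. Leaving out 1 library gave 0 to 5 calls: Defa22 without the female Cpa3Cre/+ library, and 5 genes, all lower, without the male one, among them Gdpd2, Slc15a1, Tymp and 4930539E08Rik. At an unadjusted p under 0.05, 921 genes became 1759 with no filter, 2642 in females only, 1428 in the naive libraries alone, and 365 (without Cpa3+/+ replicate 3) to 4073 (without Cpa3Cre/+ replicate 2, 1995 higher and 2078 lower) on leaving out a library; without Cpa3+/+ replicate 2 it was 530. The muscle covariate gave 245 higher and 460 lower, against 711 and 210, and the female libraries 1121 and 1521. The comparison with the other states gave 0 calls, and 114 with no filter. The muscle to epithelium difference of 1.40 was -0.23 without the female Cpa3Cre/+ library and 3.02 without the male one.

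The numbers were not taken as a pairing: the labels tie them to nothing shared, and with 2 Cpa3Cre/+ libraries the deviations from the group mean mirror each other, so that their correlations cannot test it. With the replicate number as a block, 0 genes were called and 465 had an unadjusted p under 0.05 (361 higher, 104 lower).

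Of 82 tested genes named in the text (the sex check genes left out), 53 kept their sign in every setting. In females only, Cpa3 had a log2 fold change of 0.14, Mcpt4 1.80, Mcpt9 0.29, Defa22 -0.98, Csf1r 0.27 and Cd74 0.0616, and in the naive libraries alone Olfm4 had 0.0277. With the block, Mcpt4 had 0.55, Mcpt9 0.46 and Kit -0.0725. With the muscle covariate, Mcpt4 had 0.0423, Mcpt9 0.0632, Cma1 -0.0244, Kit -0.60, Gata2 -0.27, Slc18a2 -0.18, Prkcq -0.36, S100b -0.00439, Iglc3 -0.42, Tpsg1 0.0595, Pecam1 -0.60, Lyz2 -0.94, Gyg -0.0296, Actc1 -0.49 and Cidec 0.0889. On leaving out each library in turn, the log2 fold changes that turned round ranged from -1.16 to 1.65 for Mcpt4, -0.66 to 0.19 for Mcpt9, -0.37 to 2.93 for Cma1, -1.22 to 1.74 for Tpsb2, -0.69 to 1.93 for Ms4a2, -0.55 to 0.46 for Kit, -0.40 to 0.51 for Gata2, -0.58 to 2.24 for Slc18a2, -0.56 to 2.06 for Prkcq, -0.49 to 9.80 for Defa22, -0.82 to 2.02 for Iglc3, -0.0406 to 0.99 for Gbp3, -2.26 to 0.44 for Gdpd2, -2.74 to 0.47 for Slc15a1, -1.09 to 0.65 for Tpsg1, -2.001 to 0.13 for Vil1, -0.87 to 1.11 for Pecam1, -0.29 to 0.16 for Olfm4, -1.21 to 0.77 for Lyz2, -1.78 to 0.21 for Csf1r, -1.49 to 0.10 for Cd74, -0.13 to 0.84 for Gyg, -0.29 to 1.19 for Actc1, -3.74 to 0.21 for 4930539E08Rik, -1.48 to 0.17 for Erbb3, -3.24 to 0.0526 for Cidec and -0.28 to 1.67 for Fabp4. The causes were not tested. Several mast cell genes rest on under 10 reads in most libraries, which limits their precision. Mcpt1 and Mcpt2 had more reads but still an SE of 0.70 and 0.78.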
